A study of Homo sapiens with 7 samples.

Results

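PEG10 and 9 other imprinted genes (SGCE, IGF2, CDKN1C, MEST, PEG3, DLK1, GRB10, GNAS and PLAGL1) were followed through the H3K27ac HiChIP loops of 3 cancer cell lines. HiChIP joins DNA ends that lie close together in the nucleus and then enriches, with an antibody, for chromatin that carries acetylation of histone H3 lysine 27, a mark of active promoters and enhancers. The genes were chosen by name and not by a rule on their measured values, though earlier results of these data were known. PEG10 is a gene whose regulatory regions the study perturbed, SGCE shares its promoter region, and the rest are well-known imprinted genes. They are 10 of the 20163 protein-coding genes in the annotation. A loop is a pair of different anchors on 1 chromosome with a count of the read pairs that join them. A loop was given to a gene where an anchor overlapped a 500 bp window centred on any annotated start site of that gene. The 10 genes held 215 such loops, 31 in the Ishikawa list, 32 in that of T-47D and 152 in that of LNCaP, with 2258 read pairs and 0.0606% of all loops.

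Ishikawa is an endometrial adenocarcinoma line, T-47D a ductal breast carcinoma line and LNCaP a prostate carcinoma line. The Ishikawa list combined 4 samples, 2 given DMSO vehicle for 1 h and 2 given 10 nM 17beta-estradiol (E2) for 1 h, so no effect of E2 can be read from it. T-47D had 1 sample and LNCaP 2, with no treatment given in their labels. Chromatin was cut with DpnII in Ishikawa and with MboI in T-47D and LNCaP, both of which cut at GATC, and sonication and sequencing also differed along this split, so a difference between Ishikawa and the others cannot be told apart from a difference in protocol. The lists held 163530 loops (1040329 read pairs) for Ishikawa, 42027 (351260) for T-47D and 149226 (1805322) for LNCaP. To compare lists, read pairs were also taken as parts per 1000000 read pairs of the list (ppm). No loop had fewer than 3 read pairs, and the authors also removed loops with too high a false discovery rate. A count of 0 says only that no loop of that gene was kept in the list. Where a ratio is given as at least or at most a value, a 0 was taken as 3 read pairs, or as a higher number where stated. Such a bound holds for listed read pairs only, since several loops left out of a list could together exceed it. Of 9 marker genes of the 3 lines, 8 had the highest share of read pairs in the line they mark. The exception was TFF1, an estrogen-induced gene chosen as a marker of T-47D, which had 0 read pairs there and 58 in LNCaP. With 1 pooled list per line there was no replicate and no test. All intervals below are exact 95% intervals that cover counting error only.

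An imprinted gene is expressed mainly from the copy inherited from 1 parent. The 2 copies differ in DNA methylation set in the egg or sperm at control regions. Imprinted genes tend to lie in clusters in which noncoding RNAs, insulators and enhancers are shared. Many act on growth: IGF2 is a growth factor, CDKN1C (p57) an inhibitor of cyclin-dependent kinases and GRB10 an adaptor that dampens insulin receptor signalling. The loop counts do not separate the 2 parental copies, so every value is a sum over both.

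The regions that the study targeted with CRISPR guides around PEG10 anchor the results on that gene, and 1 target site of each is shown. Of 20 guides, 19 matched chromosome 7 of GRCh37 exactly once and 1 did not match. Each line gives a 23-base site read from the reference on the strand of the guide, 5′ to 3′, with the adjoining NGG motif that Cas9 needs in capitals. The promoter site lies at chr7:94285639-94285661 on the minus strand, in the region where PEG10 and SGCE start. The other sites lie between genes, at chr7:94330724-94330746 (minus strand, 45.1 kb downstream of the PEG10 start), chr7:94390728-94390750 (minus, 105 kb downstream), chr7:94443409-94443431 (plus, 158 kb downstream) and chr7:93979792-93979814 (minus, 306 kb upstream).

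PEG10 promoter: gccttatataggttgcaccgAGG
45 kb downstream: ggaatatgctcataaccacaAGG
105 kb downstream: catctccagttcaaacagtgAGG
158 kb downstream: gagagttccactctcgtgaaTGG
306 kb upstream: ggcatactggaataaacatgAGG

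The last region carries a name in the guide list that places it downstream of PEG10, but all 4 of its guides matched upstream, toward COL1A2, and it is described here by where it matched.

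The 10 genes fell into 4 patterns. GRB10 had a promoter loop in all 3 lists. PEG10, SGCE, PEG3, GNAS and PLAGL1 had one in 2 lists, MEST only in Ishikawa and IGF2 only in T-47D. CDKN1C and DLK1 had none. In Ishikawa 6 of the 10 genes had a promoter loop, against 57.3% of all protein-coding genes. In T-47D the count was 5 of 10 against 49.2%, and in LNCaP 4 of 10 against 58.1%. A linked distal anchor, meaning a partner that overlaps no promoter window of a protein-coding gene, was found for 6 of 10 genes in Ishikawa against 52.5% of all genes, for 4 of 10 in T-47D against 34.7% and for 3 of 10 in LNCaP against 52.4%. The median gene of the 10 had 13 read pairs in the Ishikawa list, 1.5 in that of T-47D and 0 in that of LNCaP, and the median protein-coding gene 4, 0 and 13.

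**Figure D1:**
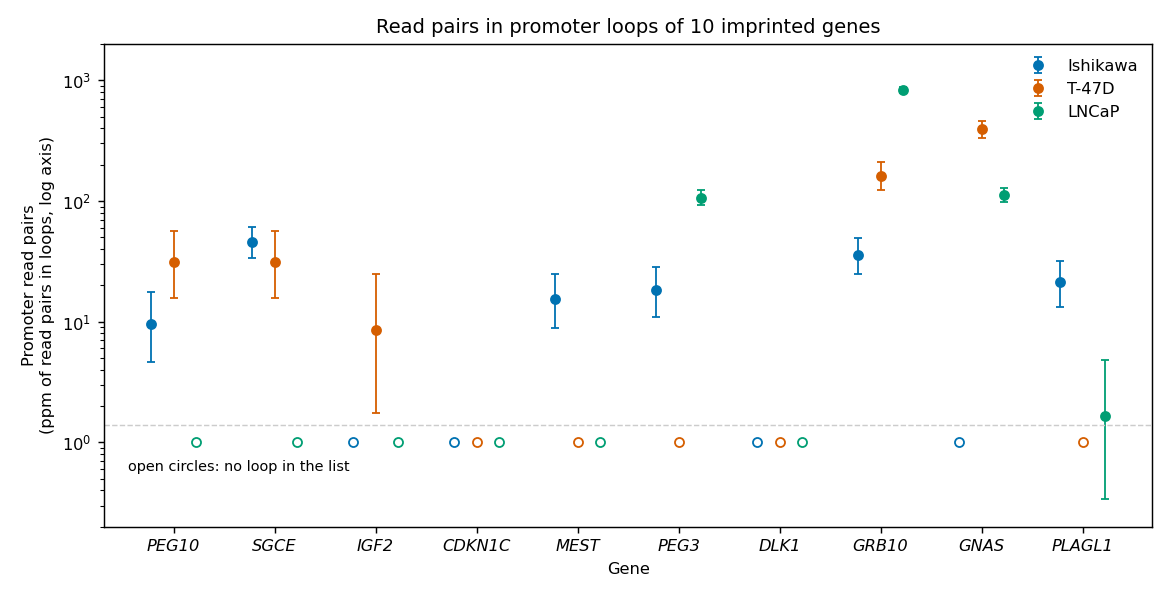
Read pairs in promoter loops as a share, in ppm, of the read pairs in all loops of a list (log axis) for the 10 imprinted genes, with filled points for the value, bars for the exact 95% Poisson interval (counting error only) and open circles, drawn at a fixed height, for genes with no loop in that list. GRB10 in LNCaP is the highest point at 830.3 ppm, and CDKN1C and DLK1 have open circles in all 3 lists.

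PEG10 derives from a retrotransposon, is expressed from the paternal copy and is needed for the placenta. On chromosome 7 (94285637 to 94299007, plus strand) it starts head to head with SGCE (94153516 to 94285884, minus strand), which encodes epsilon-sarcoglycan, a membrane protein of the dystrophin-associated complex whose loss causes myoclonus-dystonia. Promoter loops of PEG10 held 10 read pairs in Ishikawa (interval 4.80 to 18.4), 11 in T-47D (5.49 to 19.7) and 0 in LNCaP (0.0 to 3.69). As a share of each list this was 9.61 ppm in Ishikawa and 31.3 ppm in T-47D, a ratio of 3.26 (1.26 to 8.56), under the 4-fold used as the rule of size. It passed that rule with promoter windows of 2 kb (4.15-fold) and with 1 start site per gene, where Ishikawa came to 0 (at least 10.9-fold). The ratio was 1.94 when only spans of 20 kb to 1 Mb were counted and 3.05 with anchors up to 20 kb. Promoter loops of SGCE held 48 read pairs in the Ishikawa list, 11 in that of T-47D and 0 in that of LNCaP.

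The anchors behind these sums were not at the same start sites. Start sites less than 1 kb apart were grouped into clusters, and the shared start region of PEG10 and SGCE (chr7:94285305-94285884) was in an anchor only in T-47D, at chr7:94284214-94287723. The nearest Ishikawa anchor to the 5′ end of PEG10 was 8.04 kb away and the nearest LNCaP anchor 71.1 kb away. In Ishikawa the PEG10 loops came from an anchor at chr7:94293676-94297924, which covers a single internal start site 8.41 kb downstream. The Ishikawa loops of SGCE came from 3 anchors over internal start sites, and the one at chr7:94210300-94221000, 66.5 kb into the gene, held 8 of its 10 loops. With 1 start site per gene, at the 5′ end, PEG10 and SGCE kept their 11 read pairs in T-47D and had 0 in Ishikawa.

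The 3 T-47D loops, common to PEG10 and SGCE because they share the anchor, went to 2 neighbouring promoters and to the body of PEG10. The strongest, with 5 read pairs, joined the promoter of CASD1, an enzyme gene of sialic acid acetylation, 146 kb upstream of PEG10. The promoter of PPP1R9A, which encodes the actin-binding protein neurabin and is imprinted in some tissues, was joined by 3 read pairs over 251 kb. The remaining 3 read pairs led to an anchor over a PEG10 exon, 6.33 kb downstream of its start.

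In Ishikawa the 3 PEG10 loops led only to intergenic anchors. The strongest partner, at chr7:94396400-94400554, lay 113 kb downstream and had 4 read pairs. The other two, 147 kb downstream (chr7:94428653-94436724) and 172 kb upstream (chr7:94107730-94118851), had 3 read pairs each. Both were also joined to an internal anchor of SGCE, by 4 and 6 read pairs. The Ishikawa file holds 4 parts, sorted separately, that the labels do not tie to samples. PEG10 had 4, 0, 0 and 6 read pairs in them and none of its 3 loops was in more than 1 part, whereas 4 of the 10 SGCE loops were in 2 or more.

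**Figure D2:**
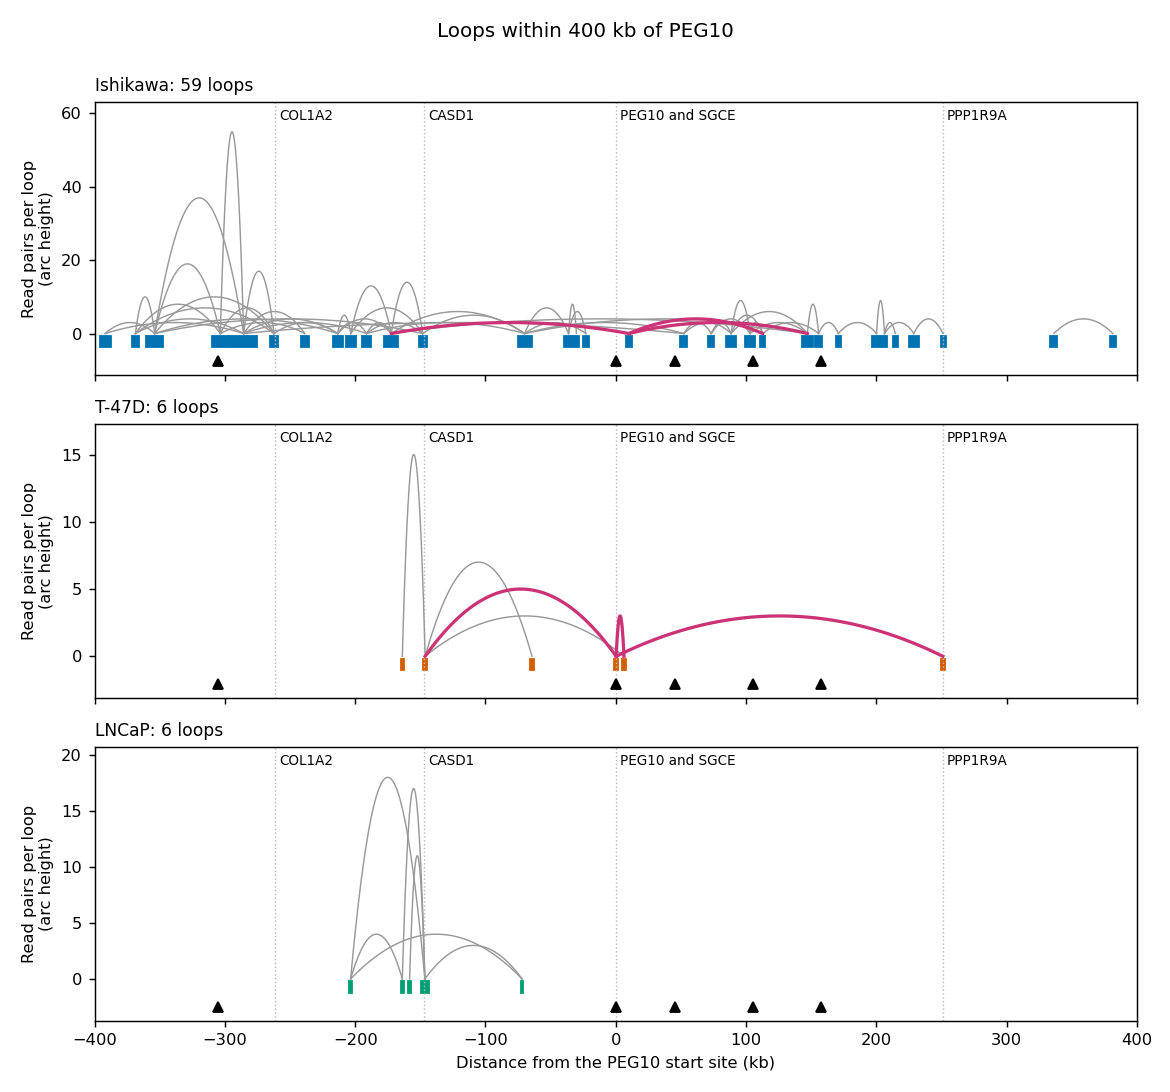
Loops within 400 kb of PEG10 in each list, by distance from its start site (kb): arc height is the number of read pairs of a loop, pink arcs are loops of PEG10 promoters, coloured boxes are anchors, black triangles are the 5 regions targeted in the study and dotted lines are gene starts. Ishikawa has 59 loops and T-47D and LNCaP 6 each, and no pink arc ends on any of the 4 triangles away from the promoter.

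None of the 4 distal target regions was joined directly to an anchor over a PEG10 start site in any list. For Ishikawa this covers only the internal PEG10 start site, since no anchor lay over the 5′ start there. In T-47D and LNCaP no anchor lay over the 4 distal regions. All anchors of a list came to 545.7 Mb in Ishikawa, against 55.3 Mb in T-47D and 169.9 Mb in LNCaP. In Ishikawa the region 105 kb downstream lay in an anchor (chr7:94384975-94392415) with 4 loops and 19 read pairs. The region 158 kb downstream lay in another (chr7:94438488-94444091) with 3 loops and 14 read pairs. These anchors were 1 step away from PEG10: each was joined to both of its downstream partners, with 6 read pairs in 2 loops for the first and 11 in 2 loops for the second. The region 45.1 kb downstream was in no anchor, the nearest being 4.35 kb away in Ishikawa. The promoter guides lay in the T-47D anchor, and 7.77 kb from the nearest Ishikawa anchor. In the paper, recruiting an activator to the PEG10 promoter and enhancers in Ishikawa raised baseline PEG10 expression. The response to E2 was faster, with more variable timing. The loop counts do not test that result.

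The region 306 kb upstream had the most read pairs of the 5 targeted regions. Its Ishikawa anchor (chr7:93975531-93988808) had 6 loops with 95 read pairs, of which 55 led to the next intergenic anchor at chr7:93989398-94010585 and were spread over all 4 parts. It was joined by 7 and 3 read pairs to 2 anchors over promoters of COL1A2, a collagen chain gene, and to none of the partners of PEG10. Over the 400 kb on either side of PEG10, Ishikawa had 32 anchors and 400 read pairs, against 6 anchors and 36 read pairs in T-47D and 5 anchors and 57 read pairs in LNCaP. As shares the read pairs were 384.5, 102.5 and 31.6 ppm. The whole lists held 92121 anchors for Ishikawa, 19386 for T-47D and 43549 for LNCaP. Among the neighbours, COL1A2 had 53 read pairs in Ishikawa and 0 in the other lists, while CASD1 had 33, 36 and 55 in Ishikawa, T-47D and LNCaP.

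GRB10 lies at chr7:50657760-50861159 on the minus strand, and which parental copy is expressed differs between tissues and start sites. Its promoter loops held 37 read pairs in the Ishikawa list, 57 in that of T-47D and 1499 in that of LNCaP (interval 1424 to 1577). The LNCaP list was the highest and Ishikawa the lowest by share of read pairs, with no overlap of their counting intervals. The LNCaP value of 830.3 ppm was above that of 99.46% of protein-coding genes. It was 23.4-fold the Ishikawa share (16.9 to 33.3) and 5.12-fold the T-47D share (3.93 to 6.79), and the T-47D share was 4.56-fold that of Ishikawa (2.97 to 7.10).

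The 118 LNCaP loops spread over 6 anchors of the gene, and 11 of them, with 248 read pairs, joined 2 of these anchors to each other. The strongest had 115 read pairs and joined an anchor of 30.9 kb at the 5′ end (chr7:50831918-50862851) to one of 20.4 kb within the gene (chr7:50770829-50791282). Without anchors wider than 20 kb the LNCaP sum was 474 and its ratio to T-47D 1.93, and with 1 start site per gene this ratio was 3.80, both short of 4-fold. The ratio of LNCaP to Ishikawa was 8.26 without the wide anchors, 36.5 with a minimum of 10 read pairs and at least 123.7 with 1 start site per gene, where Ishikawa came to 0. Outside these anchors, the partner with the most read pairs was intronic, 112 kb downstream of the 5′ end (chr7:50742431-50756873), with 222 read pairs in 5 loops. Next came an anchor of 18.1 kb (chr7:50543626-50561733) with 202 read pairs in 5 loops, over a start site inside DDC and at neither end of that gene. DDC is the aromatic amino acid decarboxylase gene that is imprinted with GRB10 in mouse heart. An intergenic anchor 92.8 kb upstream had 88. In all, 37 distal anchors were linked with 1005 read pairs.

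In T-47D the loops of GRB10 were few and close. Anchors over its 2 outermost start clusters were joined to each other by 9 read pairs and, by 21 and 17, to an intronic anchor 22.5 kb into the gene (chr7:50836386-50840848). Both were also joined to chr7:50751385-50755293, by 3 and 7 read pairs, and this anchor lies within the intronic partner of LNCaP. The ratio of T-47D to Ishikawa came to 1.77 when only spans of 20 kb to 1 Mb were counted and to 3.13 with promoter windows of 2 kb. In Ishikawa all 7 loops started from an internal anchor (chr7:50804394-50821401), 45.8 kb from the 5′ end, and the strongest, with 11 read pairs, reached 26.6 kb from that end. Of the 7 Ishikawa loops 3 (42.9%) were found in LNCaP, and of the 118 LNCaP loops 9 (7.63%) in Ishikawa. Of the 5 T-47D loops 2 (40.0%) were found in LNCaP, and of the 118 LNCaP loops 2 (1.69%) in T-47D. A loop counted as found where it matched any loop of the other list, not only one of the same gene. No share over all loops is given beside these values, so they cannot be called high or low. The rest of the chromosome within 1 Mb of the gene was also richer in LNCaP, where other loops came to 1000 ppm against 237.4 in Ishikawa and 153.7 in T-47D. The part of this in the GRB10 values was not tested.

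**Figure D3:**
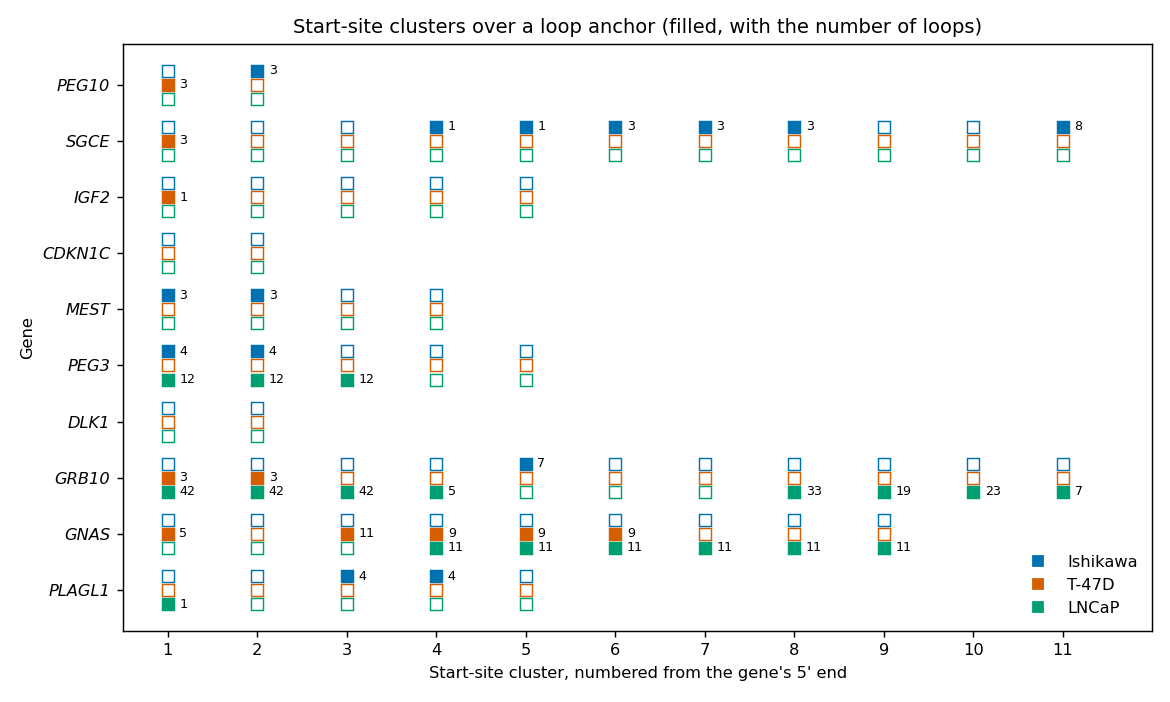
Start-site clusters of the 10 genes, numbered from the 5′ end, with 3 squares each for Ishikawa, T-47D and LNCaP: a filled square marks a cluster in a loop anchor and the number beside it is the number of loops of that anchor. Of 56 clusters, 14 were in an anchor in the Ishikawa list, 10 in that of T-47D and 18 in that of LNCaP, and Ishikawa filled none of the 9 clusters of GNAS.

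GNAS, on chromosome 20 (57414773 to 57486247, plus strand), encodes the stimulatory G protein alpha subunit and has several first exons imprinted in different ways. The outermost, for the neuroendocrine protein NESP55, is maternally expressed; those for XLalphas and the A/B transcript are paternally expressed; and the one for Gs-alpha itself is expressed from both copies in most tissues. Promoter loops of GNAS held 138 read pairs in T-47D (interval 115.9 to 163.0), 203 in LNCaP (176.0 to 232.9) and 0 in Ishikawa. By share the T-47D value was 3.49-fold the LNCaP value (2.79 to 4.36), under the 4-fold rule, but 4.41-fold when only spans of 20 kb to 1 Mb were counted. It was 2.97-fold with anchors up to 20 kb and 2.27-fold with a minimum of 10 read pairs. With 1 start site per gene, where LNCaP came to 0, it was at least 41.1-fold. With the 0 of Ishikawa taken as 3 read pairs, the lowest count of a listed loop, the T-47D share was at least 136.2-fold higher. The LNCaP share was at least 39.0-fold higher. Both bounds hold for listed read pairs only. With a minimum of 10 read pairs, and Ishikawa taken at 10, these bounds were 12.8 and 5.64. With 1 start site per gene the T-47D bound was 23.7, and LNCaP, with 0, could not be compared with Ishikawa.

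The GNAS start sites that lay in anchors differed between T-47D and LNCaP. In T-47D anchors lay over the NESP55 start (chr20:57414315-57416069, 5 loops and 24 read pairs), the XLalphas start (chr20:57427982-57432306, 11 loops and 68) and the A/B and Gs-alpha starts (chr20:57462715-57470709, 9 loops and 69). LNCaP had no anchor over the NESP55 and XLalphas starts, and 2 anchors from the A/B and Gs-alpha starts onward (chr20:57462034-57472993 and chr20:57478460-57484510). They held 117 and 123 read pairs, of which 37 joined them to each other. The nearest LNCaP anchor to the NESP55 start was 47.3 kb away. With 1 start site per gene, which is that of NESP55, GNAS had 24 read pairs in T-47D and 0 in LNCaP. The anchor over the NESP55 start also covers a start site within the antisense gene GNAS-AS1, which had the same 5 loops and 24 read pairs in T-47D. It does not reach the 5′ end of GNAS-AS1.

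Most GNAS read pairs led to other promoters, 90 in T-47D and 130 in LNCaP. The promoters of NELFCD, CTSZ, PRELID3B, ATP5F1E, NPEPL1 and STX16 were reached in both lists. The promoter of NELFCD, a subunit of the negative elongation factor, had 16 read pairs in T-47D and 36 in LNCaP at its nearer anchor. CTSZ, a cathepsin, had 19 in each. PRELID3B had 16 and 34, and ATP5F1E, a subunit of ATP synthase, 13 and 22. Upstream, STX16, in which deletions disturb GNAS imprinting and cause familial pseudohypoparathyroidism, had 13 in T-47D, from all 3 GNAS anchors, and 3 in LNCaP. Of the 23 T-47D loops 5 (21.7%) were found in LNCaP, and of the 21 LNCaP loops 5 (23.8%) in T-47D. Here too no share over all loops is given beside them.

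**Figure D4:**
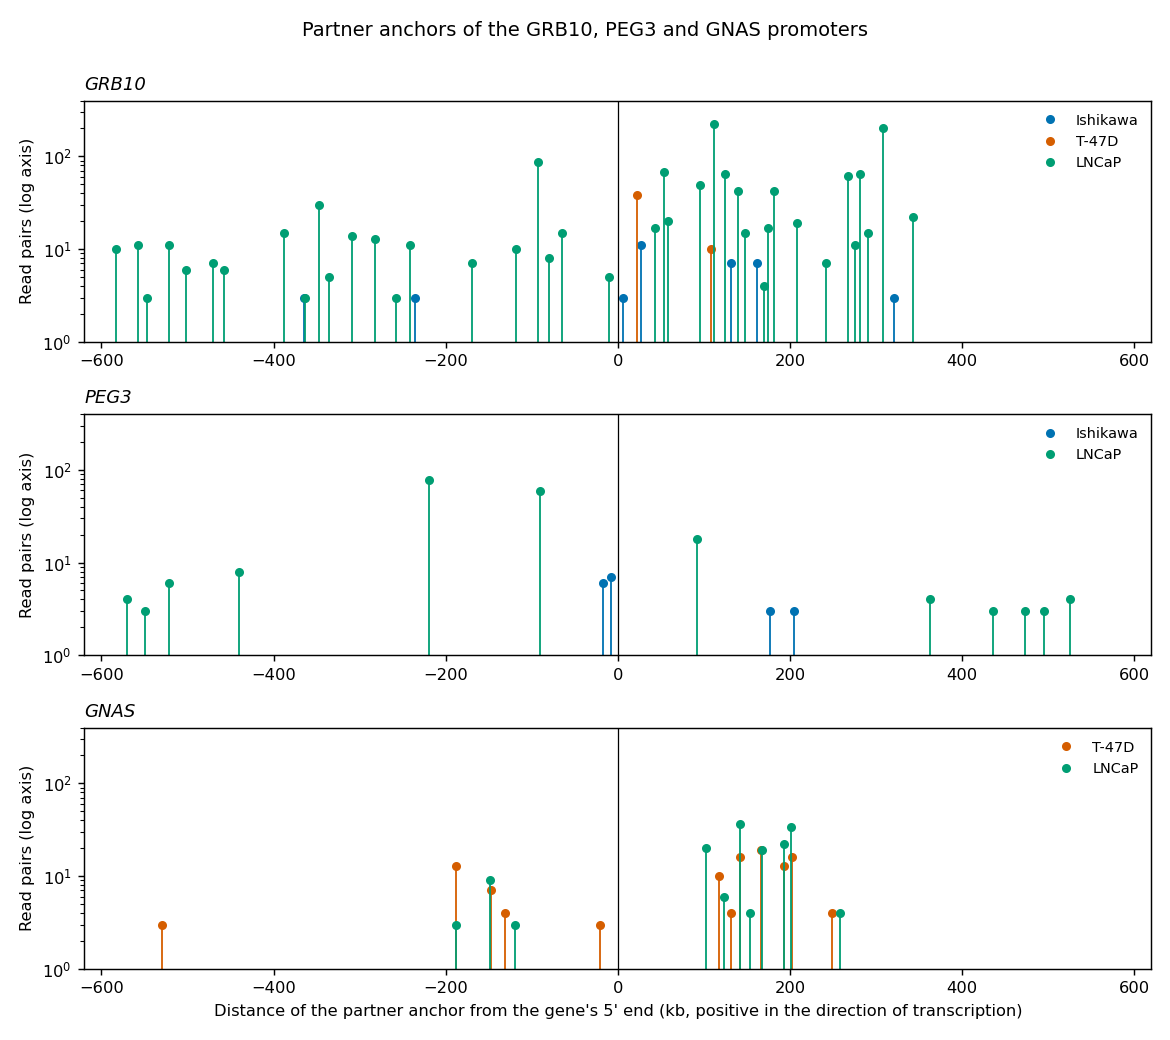
Partner anchors of the GRB10, PEG3 and GNAS promoters by distance from the 5′ end of each gene (kb, positive in the direction of transcription) and the read pairs summed over loops to them (log axis). Loops between anchors of the same gene and partners beyond 600 kb are left out. PEG3 in LNCaP has 2 tall upstream partners with 77 and 59 read pairs, and GNAS has partners at like distances in T-47D and LNCaP.

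PEG3, a paternally expressed zinc finger gene, lies at chr19:57321445-57352096 on the minus strand. It had 19 read pairs in the Ishikawa list, 0 in that of T-47D and 192 in that of LNCaP (interval 165.8 to 221.2). The LNCaP share was 5.82-fold that of Ishikawa (3.63 to 9.89) and at least 12.5-fold that of T-47D, where the nearest anchor was 300.6 kb from the 5′ end. With a minimum of 10 read pairs, and Ishikawa and T-47D taken at 10, the bounds were 5.50 against Ishikawa and 2.36 against T-47D. In both Ishikawa and LNCaP the anchor lay over the 5′ start of the gene. In LNCaP 3 intergenic partners held 154 of the 192 read pairs. The strongest, at chr19:57569622-57572801, had 77 and the next, at chr19:57440683-57443954, had 59, at 219 and 90.2 kb upstream. A further 8 loops with 35 read pairs led to promoters, at distances of 363 to 570 kb, among them those of the zinc finger genes ZNF460 (8 read pairs), ZNF547 (6), ZNF667 (4), ZNF17 (4) and ZNF583 (3). In Ishikawa the 2 strongest partners, with 7 and 6 read pairs, were within 17.6 kb upstream, and none of its 4 loops was found in LNCaP. No share over all loops is given beside this count. ZIM2, an imprinted neighbour that shares first exons with PEG3, was the only protein-coding gene whose loops were at least 0.5 alike by the Jaccard index, the loops held by both over those held by either: all 16 loops were common to both genes. Noncoding genes were not searched this way, and the noncoding MIMT1 had the same numbers of loops and read pairs as PEG3 in every list.

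MEST, a paternally expressed gene of the alpha/beta hydrolase family (chr7:130126012-130146306, plus strand), had 16 Ishikawa read pairs and 0 elsewhere. Its 3 loops started over the 5′ end and ran upstream to distal anchors at 21.7, 35.0 and 98.2 kb, with 9, 4 and 3 read pairs. The Ishikawa share was at least 9.25-fold that of LNCaP, while against T-47D, the shallower list, it was at least 1.8-fold. With a minimum of 5 read pairs, and LNCaP taken at 5, the bound against LNCaP was 3.94, under the 4-fold rule. The nearest LNCaP anchor was 213.2 kb from the 5′ end, although other loops within 1 Mb had 985.4 ppm there and 574.8 in Ishikawa.

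PLAGL1 encodes a zinc finger protein that restrains the cell cycle and lies at chr6:144261437-144385736 on the minus strand. It had 22 read pairs in the Ishikawa list, 0 in that of T-47D and 3 in that of LNCaP, and the Ishikawa share was 12.7-fold that of LNCaP (3.82 to 66.4). The ratio was 4.69 when only spans of 20 kb to 1 Mb were counted, and with 1 start site per gene PLAGL1 had 0 read pairs in Ishikawa and 3 in LNCaP, too few to compare. The Ishikawa anchor (chr6:144284730-144290315) lay over internal start sites 95.6 to 99.7 kb from the 5′ end. Its strongest loop, with 10 read pairs, led to a PLAGL1 exon. The only LNCaP loop started at the upstream start (chr6:144384282-144386305) and joined the promoter of LTV1, a ribosome assembly factor, by 3 read pairs. The imprinted start cluster of PLAGL1, at chr6:144328484-144329960, was in an anchor in none of the lists. HYMAI, the noncoding RNA that starts there, had no loop.

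IGF2 and CDKN1C, the members on 11p15, had almost no promoter loops. IGF2 (chr11:2150342-2179621, minus strand) had a single T-47D loop of 3 read pairs, from its outermost start to the promoter of TH, tyrosine hydroxylase, 10.1 kb away. CDKN1C (chr11:2904443-2907005, minus strand) had none. The nearest anchors to its 5′ end were 3.47 kb away in Ishikawa and LNCaP and 17.5 kb away in T-47D. DLK1, a Notch-ligand-like protein gene (chr14:101192042-101204561, plus strand), also had none, with anchors 4.21, 20.1 and 20.1 kb away. The surroundings of these genes were not empty: loops not their own within 1 Mb held 1290, 981.4 and 586.4 ppm in Ishikawa for IGF2, CDKN1C and DLK1.

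By the 4-fold rule, of the 7 genes compared between T-47D and Ishikawa, 2 (GRB10 and GNAS) were higher in T-47D, where 41.2% of all compared genes were, and 0 in Ishikawa, where 13.2% were. Of the 7 compared between LNCaP and Ishikawa, 3 (GRB10, GNAS and PEG3) were higher in LNCaP against 37.8% of all genes. The other 4 (PEG10, SGCE, MEST and PLAGL1) were higher in Ishikawa, against 25.4%. Of the 5 compared between LNCaP and T-47D, 2 (GRB10 and PEG3) were higher in LNCaP against 12.5%, and 2 (PEG10 and SGCE, from the same loops) were higher in T-47D against 20.7%. The shares of PEG10 and SGCE were at least 5.78-fold and at least 27.8-fold higher in Ishikawa than in LNCaP, and both were at least 18.8-fold higher in T-47D than in LNCaP. The median ratio of LNCaP to Ishikawa was at most 0.173 over the compared members, since it is that of PEG10 with its LNCaP count taken as 3. For T-47D to Ishikawa the median was that of SGCE, 0.679, and for LNCaP to T-47D that of GNAS, 0.286. Over all compared genes, with every count taken as at least 3, the medians of these 3 ratios were 1.93, 2.22 and 0.713.

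A second list of 50 imprinted genes gave the wider picture. Of these, 26 (52.0%) had a promoter loop in the Ishikawa list, 17 (34.0%) in that of T-47D and 28 (56.0%) in that of LNCaP. Over its 41 protein-coding genes, the set to read against all protein-coding genes, the shares were 53.7%, 39.0% and 63.4%, against 57.3%, 49.2% and 58.1% of all. A promoter loop was present in all 3 lists for 11 of the 50 genes and in none for another 11. The matching shares over all protein-coding genes are not given, so these counts cannot be called high or low. MESTIT1 had the same numbers of loops and read pairs as MEST in every list, and ZIM2 and MIMT1 those of PEG3. GNAS-AS1 had loops of GNAS in T-47D. The 50 genes are therefore not all separate from the first list or from each other. The highest in Ishikawa were INPP5F, an inositol phosphatase gene, with 179 read pairs, OSBPL5, a lipid-transfer protein gene, with 56, and ATP10A, a phospholipid flippase gene, with 49. In T-47D they were BLCAP with 73, ATP10A with 36 and MCTS2 with 28. In LNCaP they were DDC with 739, the receptor gene IGF2R with 474, and ZIM2 and MIMT1 with the 192 read pairs of the PEG3 anchor. DDC had 0 in both other lists, and INPP5F had 6 in LNCaP and 0 in T-47D.

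**Figure D5:**
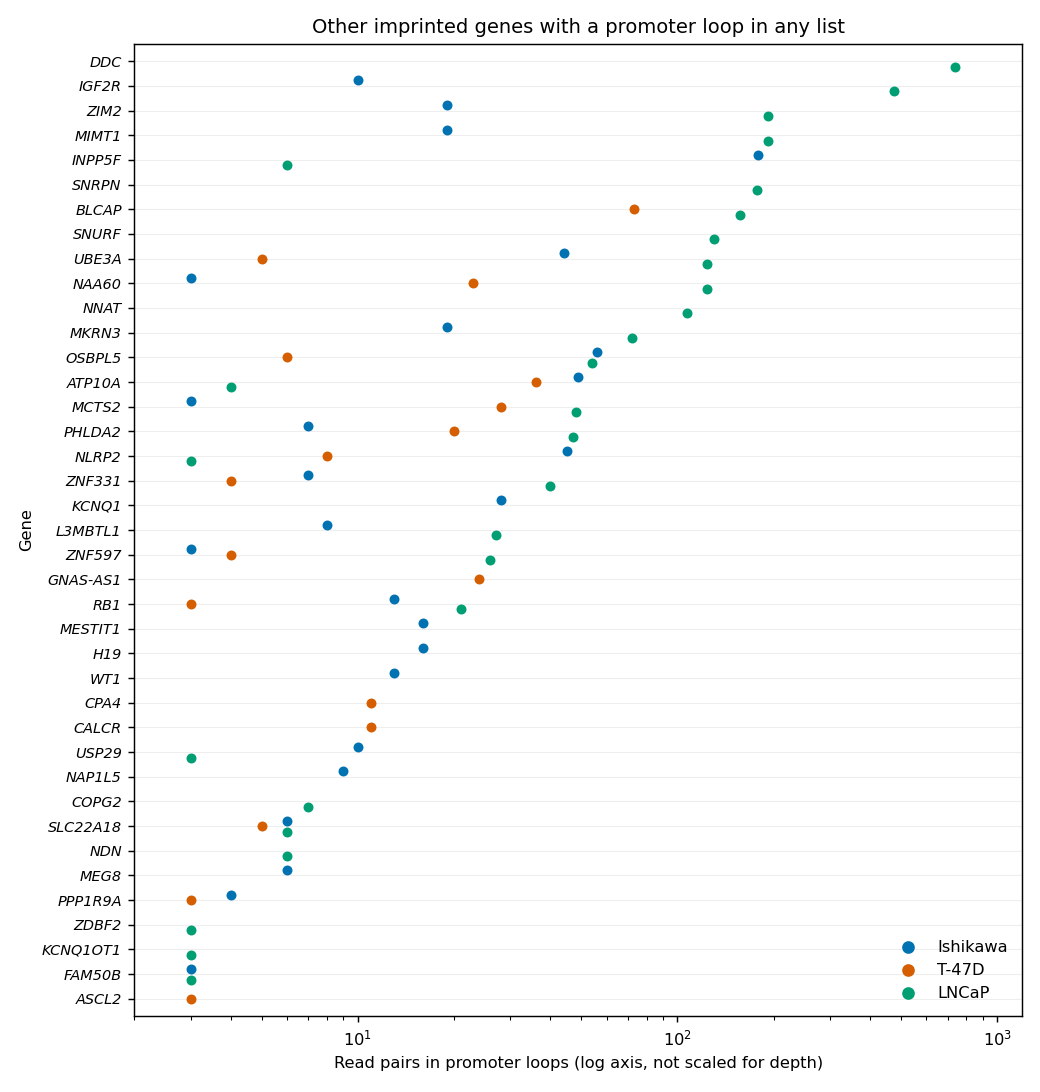
Read pairs in promoter loops (log axis, not scaled for depth) of the other imprinted genes that had a loop in any list, coloured by list and ordered by their highest value, with no point where a gene had no loop. DDC (739) and IGF2R (474) in LNCaP lie farthest right, and INPP5F (179) has the highest Ishikawa value.

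The promoter windows at the 5′ ends of the 10 genes had a median of 67.8% G and C, against 61.6% over all protein-coding genes, and an observed over expected CpG ratio of 0.721 against 0.719. Anchor edges lie at GATC sites, where both enzymes cut. Within 5 kb of the 5′ end the 10 genes had a median of 21 GATC sites against 26 for all genes. PEG10, IGF2 and CDKN1C had 15, with 2.72% of genes below them, and SGCE had 13, with 1.10% below. The part of this in their read pairs was not tested. MEST and GRB10 had 29 sites each, and their LNCaP read pairs were 0 and 1499. The full estrogen response element, searched as GGTCA, any 3 bases and TGACC (a palindrome, so both strands at once), occurred in none of the 8 promoter anchors and 25 linked distal anchors of the 10 genes in Ishikawa, and in 0.571% of all Ishikawa anchors. It was in 0 of the 10 promoter windows at the 5′ ends and in 0.0744% of those of all protein-coding genes. These letters are absent from these windows, and nothing follows from that for binding of the receptor.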

How the data were processed

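The authors aligned reads to hg19 with HiC-Pro and called loops with hichipper, removing loops with too few reads or too high a false discovery rate (versions not given in the sources used here). Replicates and treatments were combined into 1 list per line. The deposited value used here is a count of read pairs per loop, not scaled for depth. Read pairs within an anchor and loops across chromosomes were set aside and rows of the 4 Ishikawa parts were summed. No column of a sample outside the 7 samples was used (0 such columns).

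Start sites came from GENCODE on GRCh37, the build of the files: 100% of Ishikawa and LNCaP and 99.99% of T-47D anchors began within 5 bp of a GATC. An overlap of 1 bp placed an anchor on a promoter window. Shares of all read pairs of a list were compared, each count taken as at least 3, where a list held more than 3, and a ratio of 4 was the rule of size. Poisson intervals, and binomial intervals of ratios, are exact. All 10 genes were named, with the strongest partner of each, genes at least 0.5 alike in loops and the 3 highest of the second list. Members and lists were chosen with earlier results of these data known. Alternatives were minimum counts of 5 and 10, Ishikawa loops in at least 2 parts, spans of 20 kb to 1 Mb, anchors up to 20 kb, windows of 2 kb, 1 start site per gene, shares of loops, target sites within 1 kb of an anchor and, added after seeing the data, floors raised with the minimum. The scripts were tested on simulated data. Python 3.11.15, numpy 2.4.6, pandas 2.3.3, scipy 1.17.1, pysam 0.24.0 and matplotlib 3.10.9 were used.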

Additional observations from a re-analysis of the deposited data

Results flagged for a closer look

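Read pairs that join a promoter anchor to itself belong to no loop and were not counted above. The Ishikawa and T-47D lists hold them (25.6% and 26.3% of rows) and the LNCaP list holds none. Above the floor of 3, they numbered 8 in Ishikawa and 7 in T-47D for PEG10, and 25 and 7 for SGCE, whose T-47D anchor is that of PEG10. PEG3 had 4 in Ishikawa. GRB10 had 47 in Ishikawa, more than the 37 read pairs of its loops there, and 14 in T-47D. GNAS had 126 in T-47D, of which 110 were within the anchor over the XLalphas start. PLAGL1 had 4 in T-47D, from an anchor over its upstream start that had no loop.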

How the results depend on the processing

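Of 141 summary values under an alternative, 111 stayed within 1.5 times the reported value (or, for PEG10, its interval) and 30 did not. For single genes other than PEG10 129 read pair sums stayed within their intervals and 42 did not. The cause was not tested except where the setting removes loops by construction. Read pair sums of 0 and target regions with 0 joins are among the values that stayed. A setting that only removes loops or start sites cannot change them, so the numbers that stayed do not measure stability. With a minimum of 10 read pairs, 2 members had a promoter loop in Ishikawa (all genes 27.2%), 2 in T-47D (23%) and 3 in LNCaP (42.4%), and 2, 1 and 3 had a linked distal anchor (21.7%, 10.5% and 29.8%). With the floor kept at 3, 1 was then past 4-fold higher in Ishikawa than LNCaP and 0 in T-47D than LNCaP. A floor of 3 is too low for a bound where fewer read pairs cannot occur, so the floor was also raised with the minimum, a choice made after seeing the data. With 10 for both, 0 members were past 4-fold higher in Ishikawa than LNCaP, 1 in LNCaP than T-47D and 0 in T-47D than LNCaP. With 5 for both these were 2, 2 and 0. With Ishikawa loops in 2 or more parts and a floor of 6 there, PEG10 in T-47D was at least 3.46-fold Ishikawa. Linked distal anchors in T-47D came to 2 genes with a minimum of 5, with spans of 20 kb to 1 Mb or with 2 kb windows. PEG10 in Ishikawa had 0 read pairs with a minimum of 5 or 10, with loops in 2 or more parts and with 1 start site, and in T-47D 5 with a minimum of 5 and 0 with a minimum of 10. With 1 start site per gene, 2 members had a promoter loop in Ishikawa (all genes 43.1%), 5 in T-47D (43.3%) and 3 in LNCaP (52.0%). Linked distal anchors in Ishikawa then came to 2 genes, 4 members were higher in T-47D than Ishikawa, 1 in Ishikawa than LNCaP and 1 in LNCaP than T-47D. By share of loops 1 was higher in T-47D than Ishikawa, 1 in Ishikawa than LNCaP and 1 in LNCaP than T-47D. Spans of 20 kb to 1 Mb left 1 higher in T-47D than Ishikawa, and anchors up to 20 kb left 1 higher in LNCaP than T-47D. No alternative joined a distal target region to PEG10. Windows of 2 kb and target sites within 1 kb of an anchor were the only settings of a kind that can add joins. The distances left them no room to do so, so their results say nothing more about such joins. The only distal region outside an Ishikawa anchor was 4.35 kb from one. The 5′ end of PEG10 was 8.04 kb from the nearest. In T-47D and LNCaP every distal region was at least 36.96 kb from an anchor. No paired analysis was possible because the replicates were combined into 1 list per line, which also left no replicate to leave out.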
